A study of Mus musculus with 4 samples.

Results

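The 40 genes described here encode the kinetochore, the protein assembly that ties a chromosome's centromere to spindle microtubules, and the spindle checkpoint, which watches that attachment. They were chosen by symbol from a list that names them by function, and all 40 had a probe set that carried their symbol alone, among 19938 genes named in this way. The rule kept the brightest probe set of a gene by its mean over the arrays, but each of the 40 had only 1, so no measured value took part in that choice. The list itself was drawn up with earlier results of these arrays known.

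RNA recovered by immunoprecipitation was hybridised to 4 Affymetrix whole-transcript arrays. All samples were early erythroid progenitors of C57BL/6 mouse fetal liver at E14.5, mid-gestation, depleted of lineage-positive, Sca-1, CD16/32, CD41 and CD34 cells and sorted for c-kit with low CD71. The IgG group held 2 arrays of RNA pulled down from the lysate with control rabbit IgG, and the RBP group held 2 arrays of RNA recovered with an antibody to an RNA-binding protein, or RBP. That protein is unnamed in the labels, and its published identity, ZFP36L2, a zinc finger protein that binds AU-rich elements of mRNAs, was not checked against the antibody. The labels leave unstated if replicate arrays stem from separate cell preparations and how many embryos were pooled. Each p-value thus reflects a spread between arrays that may be only technical or may lie between preparations. The main fit did not pair arrays by number.

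The kinetochore is built in layers. Centromeric nucleosomes that hold the histone variant CENP-A carry an inner network of CENP proteins, which recruits the Mis12 and Ndc80 complexes that grip microtubule ends, and a fibrous corona forms outside them until attachment is complete. Unattached kinetochores recruit MAD and BUB proteins, which hold back CDC20 and with it the anaphase-promoting complex, while Aurora B and its partners break faulty attachments. Many of these genes are switched on together late in the cell cycle, and erythroid progenitors of the fetal liver divide fast.

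Levels are log2 values, so a difference of 1 is a 2-fold difference. The median of all genes was 6.02 to 6.10 on the 4 arrays. Spread was larger on the RBP arrays, with interquartile ranges of 3.63 and 3.55 against 2.69 on each IgG array. Of 8 listed genes that mark erythroid progenitors 7 were measured. All of these lay above 5.34, the 95th percentile of 1237 chemosensory receptor genes, a family with no known use in blood progenitors, taken here as the background level. Their summed level was 12.43 and 12.62 on the IgG arrays, against 13.04 and 13.24 on the RBP arrays, and 3 of the 7 were called higher (passed limma's test over all genes at an adjusted threshold of 0.05). Mean levels of the 7 ran from 8.56 to 11.41, where 47.2% to 57.8% of all genes were called higher. The 6 granulocyte and mast cell markers summed to 11.34 to 12.39 on the IgG arrays, against 11.08 to 11.98 on the RBP arrays, 5 of them above background. The markers of hepatocytes (3 of 6 above background), macrophages (3 of 7), megakaryocytes (2 of 4), lymphoid cells (4 of 4) and endothelial and stromal cells (4 of 6) each summed to at most 9.54 on any array. In the lists of other cell types 3 genes were called, where 23.8% of all genes were called higher and 6.54% lower. The megakaryocyte gene Gp9 was higher on the RBP arrays by 0.82 (limma, adjusted p = 0.0141). The macrophage gene Cd68 gave -1.59 (limma, adjusted p = 0.00568) and Elane, the neutrophil elastase gene, -1.44 (adjusted p = 0.0461), both lower. The part of other cells in the results below was not tested. In immunoprecipitated RNA, a marker's difference between the groups is one of RNA recovered and does not measure a number of cells.

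Setting RBP beside IgG immunoprecipitates asks which mRNAs the specific antibody pulled down in excess of control IgG. Kinetochore and checkpoint mRNAs were mostly higher on the RBP arrays, by a median of 0.66 on the log2 scale, and the largest differences were those of Cenpf (4.62-fold), Mis12 (4.26-fold), Cenpe (3.32-fold) and Bub1b (3.07-fold). Of the 40 genes, 21 were called higher, 0 were called lower and 19 did not pass, by limma with p-values adjusted over all 19938 genes after Benjamini and Hochberg and a threshold of 0.05. The share called higher was 52.5%, against 23.8% of all genes. For the lower direction the share of all genes was 6.54%. At an unadjusted p under 0.05 limma gave 25 members as higher and 1, Ska1, as lower. The share of all genes at that threshold was not counted, and upward it is at least the 23.8% called after adjustment. These 2 counts are thus not in themselves a result about the members. Both RBP arrays lay above both IgG arrays for 31 members (77.5%, against 37.4% of all genes), 1 member lay below (36.2% of all genes did), and 8 overlapped. At least 2-fold with no overlap were 7 members (17.5%, against 13.5% of all genes).

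**Figure D1:**
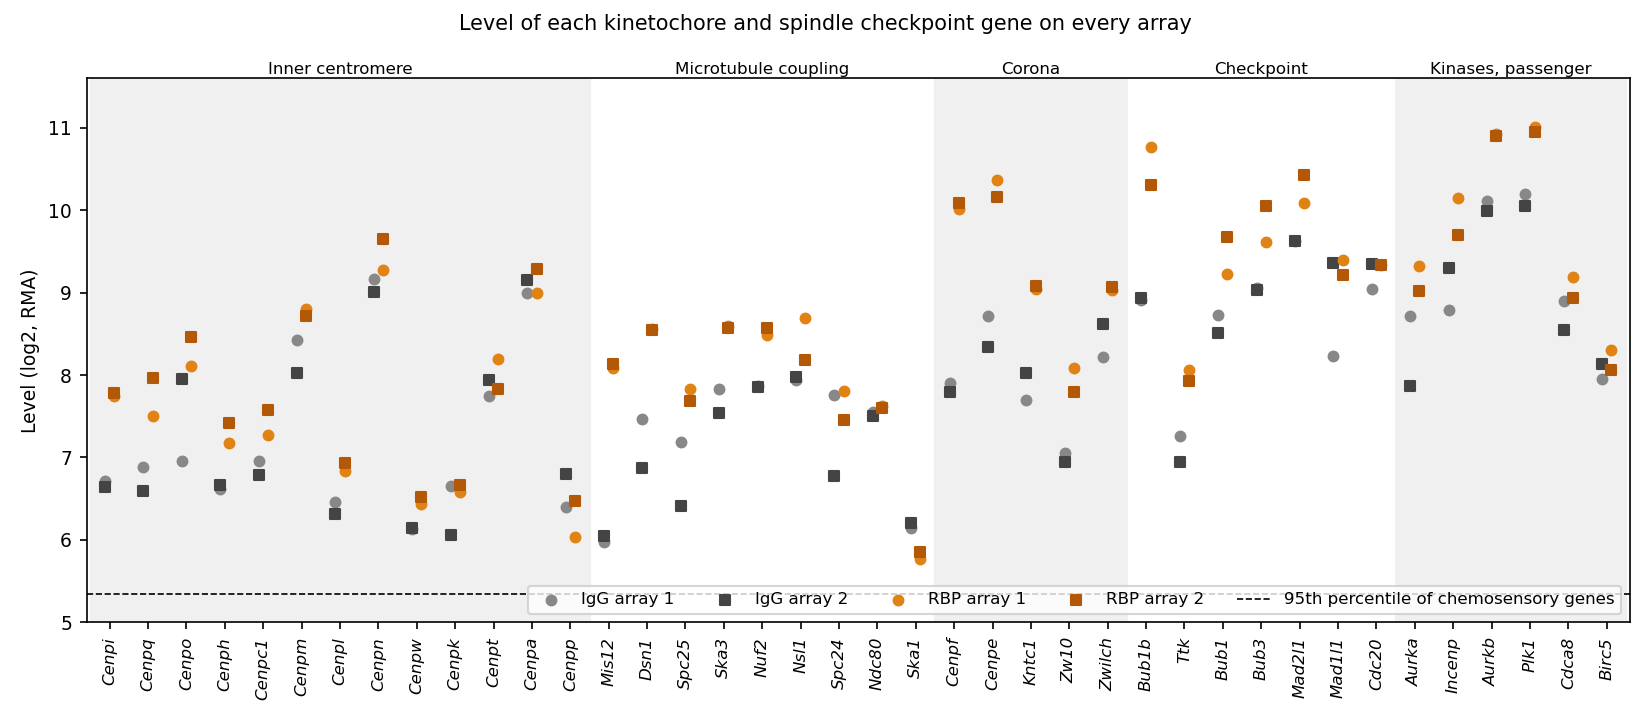
Log2 level (vertical axis) of the 40 genes on every array, with genes in 5 role groups along the horizontal axis, grey points for the IgG arrays and orange points for the RBP arrays, array 1 as circles and array 2 as squares. All 40 have a mean level above the dashed background line at 5.34. The orange points stand far above the grey ones for Cenpf, Cenpe, Mis12 and Bub1b, and mix with them for Cenpk, Cenpt, Cenpa, Cenpp, Spc24, Mad1l1, Cdc20 and Birc5.

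These counts went with the level of the genes. Mean levels of the 40 ran from 5.99 to 10.55, all above background, and of the 12906 genes above background 36.3% were called higher, 54.7% had both RBP arrays above both IgG arrays and 20.7% did so at 2-fold or more. At mean levels from 7 to 8, 7 of 12 members were called higher, against 47.1% of all genes there. From 8 to 9 it was 5 of 10 members against 56.4%, and from 9 to 10 it was 6 of 10 against 57.8%. Both members above 10, Aurkb and Plk1, were called, against 47.2%. From 6 to 7 it was 1 of 5 members against 23.4%, and the 1 member below 6, Ska1, was not called, where 4.06% of all genes were called. From 6 to 10, where 37 of the 40 lie, the share of members called was thus near that of all genes, so the count of 21 is not in itself a result about kinetochore genes. Across the 40 members, which share arrays and are not replicates, the difference followed the level weakly (Spearman's rho 0.19), against 0.56 across all genes.

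**Figure D2:**
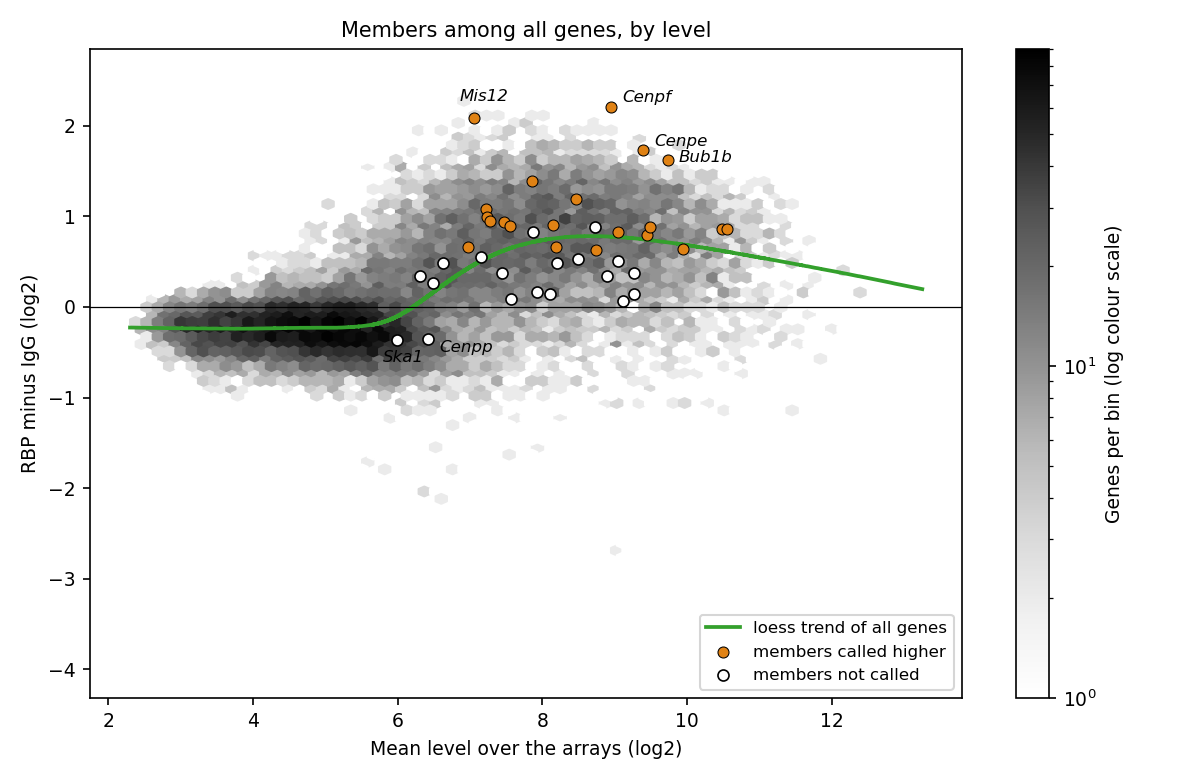
Difference RBP minus IgG on the log2 scale (vertical axis) against mean log2 level over the arrays (horizontal axis), with all 19938 genes as grey bins on a log colour scale, their loess trend as a green line and the 40 members as points. Orange points, called higher, lie on both sides of the trend, and Mis12, Cenpf, Cenpe and Bub1b stand farthest above it, by 1.62, 1.43, 0.99 and 0.90.

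The scaling of the arrays moved these counts. With quantile normalization 5 members were called higher (12.5%, against 11.1% of all genes), and with the trend of the difference on level subtracted 4 were (10%, against 5.01%), while with arrays centred on chemosensory genes 29 were (72.5%, against 35.5%). The members' median was 0.36, 0.10 and 0.97 in these settings. The median of all genes, -0.02 as deposited, moved to 0.16 with quantile normalization and to 0.29 after centring, which puts the members 0.21 and 0.68 above it, against 0.68 as deposited. That median includes many genes at low levels, where few members lie. For levels of 6 to 7, 7 to 8, 8 to 9, 9 to 10 and above 10, medians were compared in the deposited values. Those of all genes were 0.16, 0.66, 0.78, 0.74 and 0.56. Those of the members there were 0.34, 0.92, 0.65, 0.71 and 0.86, on both sides of them. Without RBP array 1, and also without RBP array 2, 8 members were called higher, against 8.65% and 10.3% of all genes. The variance then came from the IgG pair alone, with the lone RBP array assumed to vary alike. Mis12, Cenpf, Cenpe and Bub1b were called higher in each of the 11 alternative settings tried. Of these settings, the mean over probe sets could not change the values of these 4 genes, each with a single probe set. The filter at background also left their differences as they were. The share of all genes called in every setting was not counted. An exact permutation test of 2 arrays against 2 cannot give a two-sided p below 0.333, so the calls depend on the variance that limma borrows from other genes.

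**Figure D3:**
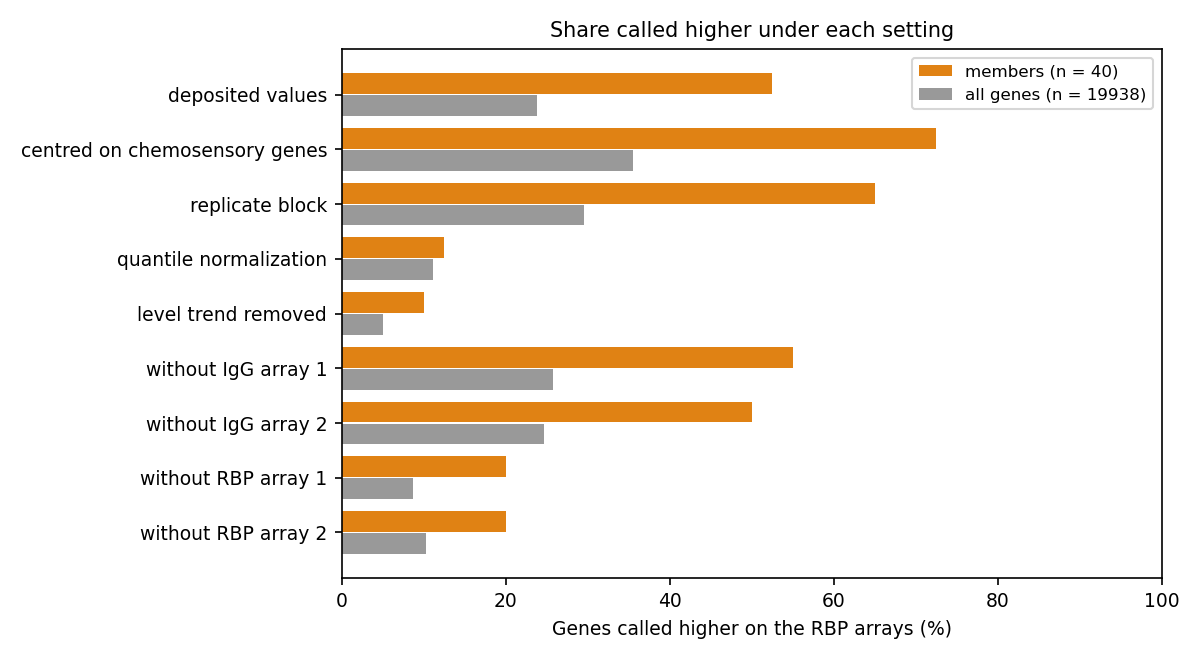
Percent of genes called higher on the RBP arrays (horizontal axis) under 9 settings, with orange bars for the 40 members and grey bars for all 19938 genes. The members' bar is longer in each setting, at 52.5% against 23.8% with the deposited values, and the bars come closest with quantile normalization, at 12.5% against 11.1%. The grey bars include genes below background, and of genes above background 36.3% were called higher with the deposited values.

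Genes of this kind are known to share promoter elements, and the letters are shown here for the 4 members with the largest differences and the 2 whose differences lay nearest 0. In textbook accounts, the CHR element, TTTGAA, is bound by MuvB complexes that repress genes early in the cell cycle and activate them late, often beside CCAAT boxes bound by NF-Y. RefSeq windows of GRCm38.p6, from 250 bases before to 50 after a start, were found for 34 of the 40 genes, 38 windows in all. CCAAT on either strand stood in 26 of the 38 windows (68.4%), against 37.4% of all 32851 windows. TTTGAA on either strand stood in 18 (47.4%, against 17.9%) and both words together in 15 (39.5%, against 6.95%). The variant TTTAAA, which reads the same on both strands, stood in 9 (23.7%, against 13.2%). Words shared a base in 3 windows. TTTGAA stood in 10 of 19 windows of members called higher and in 8 of 19 windows of the others. For CCAAT these counts were 14 and 12, and for TTTAAA 3 and 6. The windows are those of Cenpf at chr1:189688037-189688336 (minus strand), Mis12 at chr11:71019361-71019660 (plus strand), Cenpe at chr3:135212313-135212612 (plus strand), Bub1b at chr2:118597961-118598260 (plus strand), Cenpa at chr5:30666636-30666935 (plus strand) and Ndc80 at chr17:71526808-71527107 (minus strand), each written 5′ to 3′ on the gene's strand with the 3 words, or their reverse complements, in capitals.
Cenpf: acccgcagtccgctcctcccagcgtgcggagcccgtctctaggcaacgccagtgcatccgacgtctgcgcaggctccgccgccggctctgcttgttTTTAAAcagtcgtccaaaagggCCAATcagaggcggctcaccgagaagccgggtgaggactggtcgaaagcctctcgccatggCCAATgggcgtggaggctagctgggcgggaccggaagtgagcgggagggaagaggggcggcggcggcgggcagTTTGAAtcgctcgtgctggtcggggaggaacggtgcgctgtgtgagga
Mis12: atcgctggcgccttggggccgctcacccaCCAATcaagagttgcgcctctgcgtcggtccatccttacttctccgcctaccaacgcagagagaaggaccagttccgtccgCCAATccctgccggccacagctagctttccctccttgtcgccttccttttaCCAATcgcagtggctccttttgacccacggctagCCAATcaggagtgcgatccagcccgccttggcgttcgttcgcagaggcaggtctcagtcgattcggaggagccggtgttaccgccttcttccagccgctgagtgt
Cenpe: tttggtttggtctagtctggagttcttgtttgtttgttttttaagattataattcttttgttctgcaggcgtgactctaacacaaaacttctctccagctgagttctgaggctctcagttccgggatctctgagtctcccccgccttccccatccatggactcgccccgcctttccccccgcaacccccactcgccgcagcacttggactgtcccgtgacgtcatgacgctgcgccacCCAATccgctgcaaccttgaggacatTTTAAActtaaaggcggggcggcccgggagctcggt
Bub1b: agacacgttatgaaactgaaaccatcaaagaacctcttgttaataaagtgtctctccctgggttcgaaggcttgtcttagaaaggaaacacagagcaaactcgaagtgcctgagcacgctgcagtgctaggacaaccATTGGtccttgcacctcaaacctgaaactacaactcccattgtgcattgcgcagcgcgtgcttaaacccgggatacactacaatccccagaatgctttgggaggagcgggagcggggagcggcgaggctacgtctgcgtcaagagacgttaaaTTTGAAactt
Cenpa: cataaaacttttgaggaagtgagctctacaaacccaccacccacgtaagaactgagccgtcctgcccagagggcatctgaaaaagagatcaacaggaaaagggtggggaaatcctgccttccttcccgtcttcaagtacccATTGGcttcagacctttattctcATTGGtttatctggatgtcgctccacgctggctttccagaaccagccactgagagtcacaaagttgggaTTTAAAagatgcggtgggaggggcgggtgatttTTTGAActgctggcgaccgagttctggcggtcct
Ndc80: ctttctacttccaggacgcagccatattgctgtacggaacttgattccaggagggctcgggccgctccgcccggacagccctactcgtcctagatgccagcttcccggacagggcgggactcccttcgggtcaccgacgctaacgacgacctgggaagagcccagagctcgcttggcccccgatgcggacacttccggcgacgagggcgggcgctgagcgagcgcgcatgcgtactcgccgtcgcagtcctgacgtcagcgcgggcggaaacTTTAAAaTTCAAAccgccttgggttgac
The windows of Cenpf, Bub1b and Cenpa hold both CCAAT and TTTGAA, those of Mis12 and Cenpe hold CCAAT without TTTGAA, and that of Ndc80 holds TTTGAA without CCAAT. The words thus did not separate the 4 genes with differences of 1.62 to 2.21 from Cenpa and Ndc80, at 0.07 and 0.09. A match of letters is a description of the window, and immunoprecipitated RNA does not measure transcription.

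Among the centromere and inner kinetochore genes, 3 of 13 were called higher, with a median of 0.49 and a range of -0.35 to 1.08. Their median level was 7.22, and from 7 to 8 the share of all genes called higher is the 47.1% given above. Cenpi, a subunit of the inner network, was at 6.72 and 6.64 on the IgG arrays, against 7.74 and 7.78 on the RBP arrays. The replicates lay close together and far from the other group, a difference of 1.08 ± 0.14 (SE; limma, adjusted p = 0.00641). Cenpq, of the same network, was at 6.89 and 6.59 against 7.50 and 7.96, a difference of 0.99 ± 0.22 (limma, adjusted p = 0.0211). The RBP arrays differed more for Cenpq than for Cenpi, and without RBP array 2 its difference was 0.76 and not called (limma, adjusted p = 0.129). Cenph, the partner of CENP-I and CENP-K, was the last one called, at 0.66 ± 0.16 (limma, adjusted p = 0.0282), a call lost without RBP array 1 (adjusted p = 0.112) or 2 (0.232). Of the 3, Cenpi alone was still called with quantile normalization (0.90, limma, adjusted p = 0.0254), and none was with the level trend removed.

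CENP-A itself, the histone variant that marks the centromere, gave no detectable difference. The level of Cenpa was 8.99 and 9.15 on the IgG arrays, against 8.99 and 9.29 on the RBP arrays, so the groups overlapped, and the 95% interval of the difference ran from -0.36 to 0.50. Cenpp, another inner subunit, had the lowest difference of the group, with 6.40 and 6.80 against 6.03 and 6.47, again with overlap (-0.35 ± 0.22; limma, adjusted p = 0.267). Cenpc1, which bridges the centromeric nucleosome to the outer kinetochore, gave 0.55 and narrowly missed the threshold (limma, adjusted p = 0.0612). Cenpt, which offers a parallel bridge to the Ndc80 complex, gave 0.17 with overlap, and its partner Cenpw gave 0.34 without overlap, neither of them called. The remaining members, Cenpo (0.83), Cenpm (0.53), Cenpl (0.49), Cenpn (0.37) and Cenpk (0.27), did not pass either. IgG array 1 stood 1 log2 unit below IgG array 2 for Cenpo, and without IgG array 1 the difference was 0.33, while without IgG array 2 it was 1.32 and called (limma, adjusted p = 0.0124). Cenpm (0.73), Cenpl (0.56) and Cenpk (0.57) were called without IgG array 1 (limma, adjusted p = 0.0212, 0.0411 and 0.0383), and without IgG array 2 they gave 0.33, 0.41 and -0.03, not called (0.119, 0.0745 and 0.882).

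Of the genes that couple the kinetochore to microtubules 5 of 9 were called higher, and their differences had the widest range of the 5 role groups, from -0.36 to 2.09. At their median level of 7.57 the share of all genes is again 47.1%. Mis12 names the complex that joins the inner network to the Ndc80 complex. It was at 5.98 and 6.05 on the IgG arrays, against 8.09 and 8.13 on the RBP arrays, the widest separation of the group for its spread, with a difference of 2.09 ± 0.14 (SE; limma, adjusted p = 0.00558). Dsn1, of the same complex, was at 7.47 and 6.87 against 8.56 and 8.55, a difference of 1.39 ± 0.23 (limma, adjusted p = 0.00953), called without each array in turn but not with quantile normalization (1.02, adjusted p = 0.0687). The third subunit measured, Nsl1, gave 0.48 ± 0.21 and missed the threshold (limma, adjusted p = 0.128).

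The Ndc80 complex itself was uneven. Ndc80, its namesake and microtubule-binding subunit, was at 7.55 and 7.50 on the IgG arrays, against 7.63 and 7.60 on the RBP arrays. The groups did not overlap, yet the difference of 0.09 ± 0.14 did not pass (limma, adjusted p = 0.622) and its 95% interval ran from -0.25 to 0.44. Its direct partner Nuf2 was called higher at 0.66 ± 0.14 (limma, adjusted p = 0.0208). Spc25, of the inner dimer, was called narrowly at 0.95 ± 0.27 (adjusted p = 0.0470), with 1.34 without IgG array 1 and 0.56 without IgG array 2, called in both cases. Spc24, its partner there, gave 0.37 ± 0.34 with overlap. The IgG arrays differed by 0.99 for Spc24, which was called without IgG array 1 (0.86; limma, adjusted p = 0.0330) and gave -0.13 without IgG array 2. Of the Ska complex, which helps to hold shrinking microtubules, Ska3 gave 0.90 ± 0.16 (limma, adjusted p = 0.0129). Ska1 was at 6.14 and 6.20 on the IgG arrays, against 5.77 and 5.85 on the RBP arrays. With the level trend removed Ska3 gave 0.14 and Ska1 -0.25, neither of them called (limma, adjusted p = 0.628 and 0.32). The difference between these 2 genes was not tested. Ska1 was the only member with both RBP arrays below both IgG arrays, and its difference of -0.36 ± 0.14 did not pass (limma, adjusted p = 0.111). Without RBP array 1 or 2 the calls of Spc25, Ska3 and Nuf2 were lost (limma, adjusted p from 0.0816 to 0.188), and the difference of Nuf2 turned to -0.10 once the level trend was subtracted.

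All 5 corona genes were called higher, with a median of 1.19, at a median level of 8.74, where 56.4% of all genes were called. Cenpf, a large coiled-coil protein of the corona that also binds dynein regulators, was at 7.90 and 7.79 on the IgG arrays, against 10.01 and 10.09 on the RBP arrays. That is the largest difference of the 40, at 2.21 ± 0.15 (SE; limma, adjusted p = 0.00558). Cenpe, the kinesin motor that carries chromosomes to the spindle equator, was at 8.72 and 8.34 against 10.36 and 10.16, a difference of 1.73 ± 0.19 (limma, adjusted p = 0.00560). With quantile normalization Cenpf gave 1.76 and Cenpe 1.29, both still called.

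The other corona members form the RZZ complex, which brings dynein and MAD proteins to kinetochores. Kntc1, the mouse Rod gene, gave 1.19 ± 0.17 (SE; limma, adjusted p = 0.00715) and Zw10 gave 0.94 ± 0.17 (adjusted p = 0.0120). Zwilch had the smallest difference, with 8.22 and 8.62 on the IgG arrays, against 9.03 and 9.07 on the RBP arrays. Its groups did not overlap, and its difference of 0.63 ± 0.18 passed narrowly (limma, adjusted p = 0.0492). The call of Zwilch was lost without IgG array 1 (limma, adjusted p = 0.0672), RBP array 1 (0.217) or RBP array 2 (0.225), and that of Zw10 without RBP array 1 (0.108). Neither of them, nor Kntc1, was called with quantile normalization (limma, adjusted p from 0.0587 to 0.771) or with the level trend removed, where Zwilch gave -0.15. Zwilch also lost its call with the trend and robust options of limma (adjusted p = 0.0615). Whether the corona genes differed more than the other members was not tested.

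Of 7 checkpoint genes 5 were called higher, with a median of 0.79. Their median level was 9.27, and 57.8% of all genes at 9 to 10 were called. Bub1b encodes BUBR1, the part of the mitotic checkpoint complex that blocks CDC20. It was at 8.91 and 8.93 on the IgG arrays, against 10.76 and 10.31 on the RBP arrays, a difference of 1.62 ± 0.19 (SE; limma, adjusted p = 0.00570). Ttk, the kinase MPS1 that starts checkpoint signalling, was at 7.26 and 6.95 against 8.06 and 7.93, a difference of 0.89 ± 0.17 (limma, adjusted p = 0.0147). The scaffold kinase Bub1 gave 0.83 ± 0.20, its binding partner Bub3 0.79 ± 0.19 and Mad2l1, which encodes the MAD2 protein that closes around CDC20, 0.64 ± 0.17 (limma, adjusted p = 0.0291, 0.0297 and 0.0382).

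The target of the checkpoint gave no detectable difference. Cdc20, the activator of the anaphase-promoting complex, was at 9.04 and 9.35 on the IgG arrays, against 9.34 and 9.33 on the RBP arrays. These groups overlapped, and the difference of 0.14 ± 0.17 had a 95% interval of -0.27 to 0.55. Mad1l1, the MAD1 anchor of MAD2, differed by more than 1 between its IgG arrays (8.23 and 9.36), and its difference of 0.51 ± 0.37 turned to -0.06 without IgG array 1 and to 1.08, called, without IgG array 2 (limma, adjusted p = 0.0119). Bub3 and Mad2l1 lost their calls without any 1 of the 4 arrays (limma, adjusted p from 0.0537 to 0.286), Bub1 without IgG array 2 (0.0623), RBP array 1 (0.0584) or RBP array 2 (0.194), and Ttk without RBP array 1 (0.114) or 2 (0.0751). With quantile normalization or the level trend removed Bub1b was the only checkpoint gene called.

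The mitotic kinases and the chromosomal passenger complex were called higher for 3 of 6 genes, with a median level of 9.19 and the same 57.8% of all genes there. Aurkb, the kinase of the passenger complex, gave 0.86 ± 0.14 (SE; limma, adjusted p = 0.0104), and Plk1, the polo kinase that also acts at kinetochores, gave 0.86 ± 0.15 (adjusted p = 0.0113). Incenp, the scaffold of the complex, was at 8.79 and 9.30 on the IgG arrays, against 10.15 and 9.70 on the RBP arrays, a difference of 0.88 ± 0.24 (limma, adjusted p = 0.0435). Aurka, the spindle pole kinase, had a like difference of 0.88 ± 0.30 with 8.72 and 7.87 against 9.32 and 9.02, but did not pass (limma, adjusted p = 0.0761), and its IgG arrays stood 0.85 apart. Without IgG array 1 it was called (1.30; limma, adjusted p = 0.0117), and without IgG array 2 it gave 0.45 and was not (0.110).

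The remaining passenger subunits were not called. Birc5, which encodes survivin, was at 7.95 and 8.13 on the IgG arrays, against 8.30 and 8.06 on the RBP arrays, with overlap and a 95% interval of -0.27 to 0.55. Cdca8, the borealin gene, gave 0.34 ± 0.19 without overlap and was not called (limma, adjusted p = 0.218). Thus within this complex Aurkb and Incenp were called and Birc5 and Cdca8 were not, but the difference between these pairs was not tested, and with the level trend removed none of the 6 was called. Without RBP array 1 the calls of Aurkb, Plk1 and Incenp were lost (limma, adjusted p = 0.0920, 0.102 and 0.241), as they were without RBP array 2 (0.0813, 0.0786 and 0.0665), and that of Incenp also without IgG array 1 (0.0963).

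**Figure D4:**
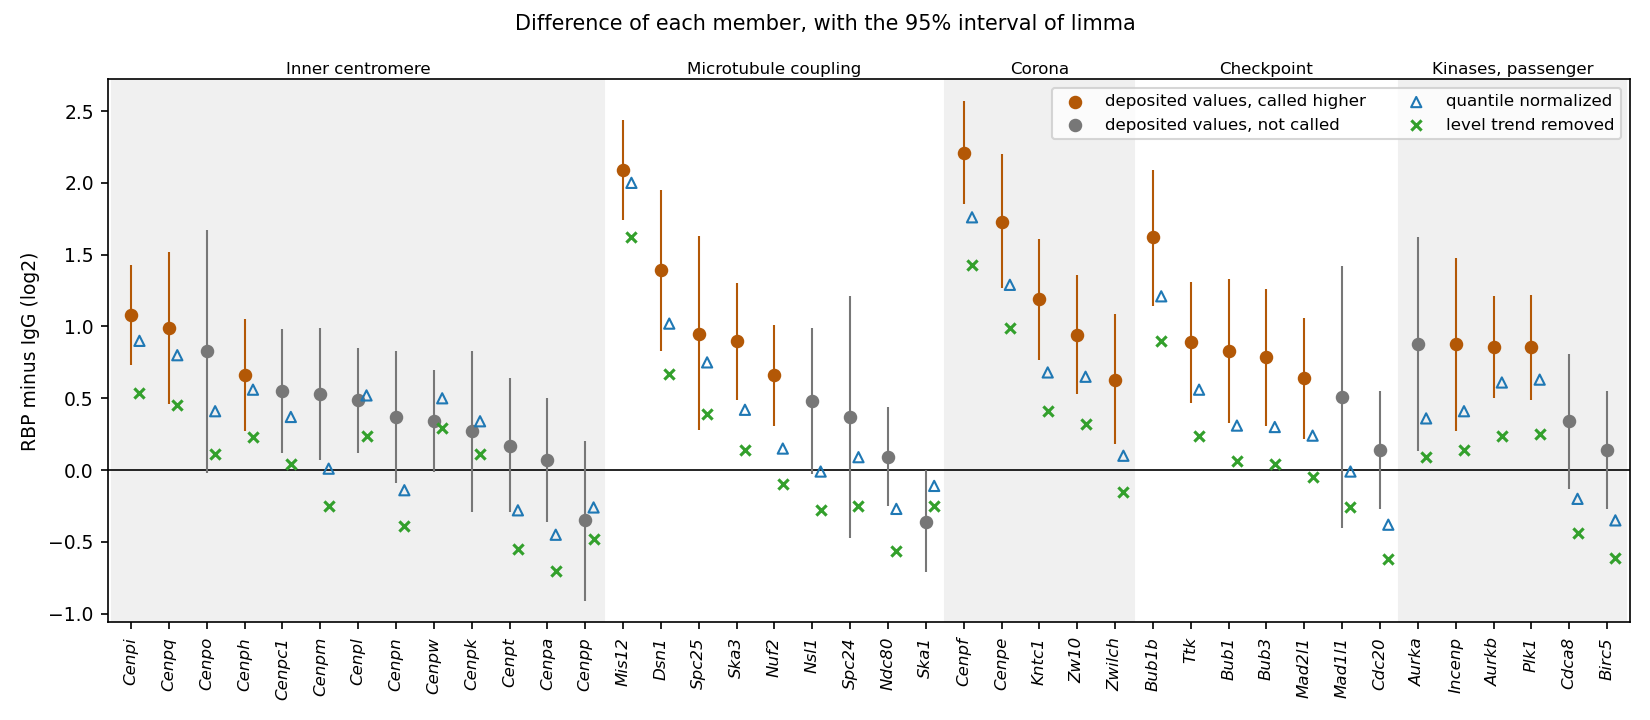
Difference RBP minus IgG on the log2 scale (vertical axis) of the 40 genes in role groups, with limma's 95% interval as a line, filled points in orange where called higher and in grey where not, open triangles after quantile normalization and crosses with the level trend removed. The crosses of Mis12, Cenpf, Cenpe and Bub1b stay at 0.90 or above, while those of 16 genes fall below 0, with Cenpa lowest at -0.70.

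Between any RBP and any IgG array the members' median difference was 0.60 to 0.73, and 34 to 38 of the 40 (85% to 95%) were higher on the RBP array, against 47.1% to 53% of all genes and 63.2% to 68.9% of genes above background. Within a group the median absolute gap between the arrays was 0.19 for both the IgG pair and the RBP pair. The members' signed median difference, array 2 minus array 1, was -0.06 for the IgG pair and 0.02 for the RBP pair. The members' median difference between the groups in the deposited values, 0.66, was thus larger than these signed medians. With the level trend removed it was 0.10, with 16 members below 0. That removal shifts both RBP arrays of a gene alike, so it leaves the values within a group as they are. Single genes such as Mad1l1, Spc24, Cenpo and Aurka had IgG arrays 0.85 to 1.14 apart.

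Of 82 other genes of chromosome segregation, measured from 5 lists drawn up by function, 47 were called higher (57.3%, against 23.8% of all genes). Another 2 were called lower, as were 6.54% of all genes, and 33 neither. The median difference of the 82 was 0.81. Median levels of the lists ran from 7.94 to 9.42, and at 7 to 10 the share of all genes called was 47.1% to 57.8%. No test compared these genes with the members. Further kinetochore and centromere genes had a median level of 7.94, and 47.1% of all genes at 7 to 8 were called higher. Among these 26 further genes 12 were higher and 1 was lower (4 and 2 with the level trend removed). They included Bod1l (2.28 ± 0.15; limma, adjusted p = 0.00558) and Ercc6l, the helicase PICH of anaphase bridges (1.94 ± 0.31, adjusted p = 0.00887). The lower one was Pmf1, a further subunit of the Mis12 complex, at 8.68 on the IgG arrays, against 8.13 on the RBP arrays (-0.55 ± 0.15; limma, adjusted p = 0.0399), which no longer passed when arrays were centred on chemosensory genes (-0.23, adjusted p = 0.273) or without IgG array 1 (0.0550), RBP array 1 (0.244) or RBP array 2 (0.239). Pmf1 also missed the threshold with the trend and robust options of limma (adjusted p = 0.0678). With quantile normalization and with the level trend removed Pmf1 stayed lower and called (-1.04 and -1.32; limma, adjusted p = 0.0196 and 0.0167). Within the Mis12 complex the 4 genes measured thus ran, in the deposited values, from 2.09 (Mis12) over 1.39 (Dsn1) and 0.48 (Nsl1) to -0.55 (Pmf1).

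Of 18 genes of the anaphase-promoting complex and its regulators 8 were higher (0 with the level trend removed) and 1 was lower. Their median level was 8.3, and 56.4% of all genes at 8 to 9 were called higher. Anapc2, the cullin-like subunit, gave 1.39 ± 0.18 and Anapc1, the largest scaffold, 1.33 ± 0.17 (limma, adjusted p = 0.00613 and 0.00631). Neither was called with the level trend removed (0.61 and 0.7; limma, adjusted p = 0.086 and 0.0584). Ube2c, the ubiquitin-conjugating enzyme that works with the complex, was lower at -0.77 ± 0.16 (limma, adjusted p = 0.0198), a call lost after centring (-0.46, adjusted p = 0.0807) and without RBP array 1 (0.186) or 2 (0.0693). With quantile normalization and with the level trend removed Ube2c stayed lower and called (-1.06 and -1.4; limma, adjusted p = 0.0219 and 0.0174). Cohesin genes were called higher in 12 of 15 cases, and in 0 with the level trend removed. Their median level was 9.42, and 57.8% of all genes at 9 to 10 were called higher. Espl1, the separase that cuts cohesin, gave 1.45 ± 0.19 and Wapl, which releases cohesin, 1.32 ± 0.14 (limma, adjusted p = 0.00631 and 0.00558). Pttg1, the securin that restrains separase, gave -0.01 ± 0.17 (limma, adjusted p = 0.969), with a sign that turned after centring.

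Condensin genes were called higher in 6 of 8 cases (1 with the level trend removed), led by Ncapg2 (1.54 ± 0.14; limma, adjusted p = 0.00558) and Smc2 (1.19 ± 0.14, adjusted p = 0.00570), while Smc4, the partner of SMC2 in the same ring, gave 0.44 ± 0.17 and missed the threshold (adjusted p = 0.103). The median level of the condensin genes was 9.33, and 57.8% of all genes at 9 to 10 were called higher. Of 15 regulators of mitotic entry and late cell cycle transcription 9 were higher (1 with the level trend removed). Their median level was 8.63, and 56.4% of all genes at 8 to 9 were called higher. Arpp19, an inhibitor of the phosphatase PP2A, gave 1.44 ± 0.19 and Lin9, a MuvB subunit, 1.40 ± 0.17 (limma, adjusted p = 0.00651 and 0.00570). Pkmyt1, a kinase that inhibits CDK1, gave -0.10 ± 0.22 (limma, adjusted p = 0.744) and turned positive after centring. Over the 82 genes the number called higher was 24 with quantile normalization (against 11.1% of all genes), 6 with the level trend removed (5.01%), 24 without RBP array 1 (8.65%) and 21 without RBP array 2 (10.3%).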

How the data were processed

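The authors deposited a log2 level for every probe set, summarised by RMA in affy according to the submitters' processing notes. Which versions, background step or filters were used is not given in the sources used here, and the scale was taken from the values. Groups came from the sample titles, 2 arrays each. Of 35556 probe sets, 21789 carried 1 symbol in the platform annotation, 1621 several and 12146 none there. Each of the 19938 genes was represented by its brightest probe set. Differences (RBP minus IgG) were tested two-sided in R 4.3.3 with limma 3.58.1 (lmFit and eBayes), Benjamini-Hochberg adjusted over all genes at 0.05, with 2 residual and 3.76 prior degrees of freedom. The number of arrays limited precision, and the members' median standard error was 0.179. The test was tried on simulated data. Alternatives were quantile normalization over all probe sets, centring on chemosensory genes, removal of the loess trend on level (span 0.3), a filter at background, the mean over probe sets, a block for replicate number, trend and robust options, and each array left out.

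The members and all lists were chosen with earlier results of these data known. In each role group the members with the 2 largest and the smallest signed differences are given on every array, and in each other list the same ranks among genes above background are named. Cenpa and Ndc80 were given on every array after their values were seen. 3' untranslated ends and protein sequences were not used here.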

Additional observations from a re-analysis of the deposited data

How the results depend on the processing

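The members called higher numbered 5 with quantile normalization and 4 with the level trend removed, and 8 to 22 when each array was left out. Their median difference was 0.97 after centring on the chemosensory genes, 0.36 with quantile normalization and 0.10 with the level trend removed. The other genes of the pathway gave 24 and 6 higher calls with quantile normalization and trend removal and 21 to 49 with an array left out. Their lower calls numbered 0 after centring, 1 with trend and robust options and 0 to 2 with an array left out. For these other genes quantile normalization gave 2 lower calls and trend removal 3, against 2 as deposited. No called member changed sign except with the level trend removed, where Nuf2 gave -0.10, Zwilch -0.15 and Mad2l1 -0.05. Of members not called, quantile normalization turned Cenpn (-0.14), Cenpt (-0.28), Cenpa (-0.45), Nsl1 (-0.01), Ndc80 (-0.27), Mad1l1 (-0.01), Cdc20 (-0.38), Cdca8 (-0.20) and Birc5 (-0.35), and trend removal turned Cenpm (-0.25), Cenpn (-0.39), Cenpt (-0.55), Cenpa (-0.70), Nsl1 (-0.28), Spc24 (-0.25), Ndc80 (-0.56), Mad1l1 (-0.26), Cdc20 (-0.62), Cdca8 (-0.44) and Birc5 (-0.61). Smc4 turned to -0.06 and -0.30 in these settings, and centring turned Pttg1 to 0.31 and Pkmyt1 to 0.22. With an array left out, signs changed for Cenpa (-0.08 to 0.22), Mad1l1 (-0.06 to 1.08), Cdc20 (-0.01 to 0.30), Cenpk (-0.03 to 0.57), Spc24 (-0.13 to 0.86), Cenpt (-0.01 to 0.36), Pttg1 (-0.17 to 0.16) and Pkmyt1 (-0.38 to 0.18). The cause of these changes was not tested. With the replicate number as a block, 26 members and 55 other genes of the pathway were called higher, as were 29.5% of all genes. The members gained were Cenpo, Cenpc1, Cenpm, Cenpl and Aurka (limma, adjusted p = 0.00405, 0.0335, 0.0344, 0.0491 and 0.00230). Same-numbered arrays deviated together across all genes (r = 0.255) and across the members (r = 0.14), but nothing in the labels says that a number marks a shared preparation, and 2 pairs cannot settle it.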

Other observations

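Several marker genes of other blood and liver cells differed between arrays of the same group, in the same direction in both groups; these genes were picked out after their values were seen. The myeloid peroxidase gene Mpo was at 11.40 and 10.53 on IgG arrays 1 and 2 and at 11.49 and 10.56 on RBP arrays 1 and 2. Cpa3, a mast cell protease, was at 9.50 and 7.55 on the IgG arrays, against 7.88 and 7.29 on the RBP arrays. Alb, the albumin gene of hepatocytes, was at 7.58 and 5.70 and at 7.77 and 6.27. The B cell gene Cd79a was at 7.67 and 6.29 and at 6.60 and 5.09. Kit, the receptor used in the sort, ran the other way, at 10.88 and 11.25 and at 11.63 and 11.89. Across the 40 kinetochore and checkpoint genes the median absolute gap within a group was 0.19. Whether the marker shifts stem from preparations shared by same-numbered arrays was not tested, and the main fit made no use of the number. It called 21 members higher (against 23.8% of all genes), and with the number as a block 26 were (against 29.5%).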
